A study of Mus musculus with 8 samples.

Results

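The machinery of DNA replication and mitosis was followed through 48 genes in E14 mouse ESCs moved from serum to 2i. They were the rows whose Ensembl identifier carries 1 of 48 member symbols in GENCODE M21, out of 37263 counted genes, and all 48 were found and passed the filter of 1 CPM in 2 or more libraries (CPM, the normalised read count, is relative to the library's scaled total, and RPKM is that value relative to exon length). By role, 10 license replication origins, 15 activate the helicase or work at the fork, 4 supply nucleotides, 1 (Slbp) processes histone mRNA, and 18 act in G2 and mitosis. E14 is a feeder-independent ESC line of strain 129/Ola, kept here in medium with fetal calf serum and LIF before the transfer. RNA was taken at 4, 16, 24, and 32 hr in 2i, without vitC or with 17 µM vitC. The 2i medium was serum-free and held LIF, an inhibitor of MEK (PD0325901), and one of GSK3 (CHIR99021). Each of the 8 combinations had 1 library, and no serum library was used here, so 4 hr in 2i was the earliest point and all groups had received both inhibitors.

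An origin is licensed in G1, when the origin recognition complex, Cdc6, and Cdt1 load the Mcm2 to Mcm7 helicase, and geminin (Gmnn) blocks a repeat of this step after S phase has begun. Cdc45 and the GINS complex turn the helicase on, polymerases, Pcna, and Rpa copy and protect the strands, and Rrm1, Rrm2, Tyms, and Tk1 provide the deoxynucleotides. Cyclin B with Cdk1 then drives entry into mitosis, and Cdc20 with the anaphase-promoting complex ends it. ESCs are known for a short cell cycle in which much of the time is spent in S phase. Transcription of S-phase genes is commonly tied to E2F sites, and that of G2/M genes to the pair of a CHR element and CCAAT boxes.

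To show these elements in the genes on which the results turn, 4 promoters are printed here from RefSeq (build GRCm38.p6), each 300 bases long, with 250 bases before the start site and 50 from it on. Capitals mark an E2F-type match (TT, then 2 letters of C or G, then CGC), a CHR-type match (TTTGAA or TTTAAA), or CCAAT, on either strand, and neighbouring matches may run together.
Mcm5, chr8:75109259-75109558, plus strand: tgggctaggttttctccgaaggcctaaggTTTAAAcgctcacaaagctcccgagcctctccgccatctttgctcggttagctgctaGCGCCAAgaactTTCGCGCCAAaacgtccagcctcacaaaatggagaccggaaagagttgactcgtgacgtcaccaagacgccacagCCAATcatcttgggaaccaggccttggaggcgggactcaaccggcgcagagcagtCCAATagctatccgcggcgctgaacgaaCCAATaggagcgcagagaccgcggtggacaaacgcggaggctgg
Rpa2, chr4:132768110-132768409, plus strand: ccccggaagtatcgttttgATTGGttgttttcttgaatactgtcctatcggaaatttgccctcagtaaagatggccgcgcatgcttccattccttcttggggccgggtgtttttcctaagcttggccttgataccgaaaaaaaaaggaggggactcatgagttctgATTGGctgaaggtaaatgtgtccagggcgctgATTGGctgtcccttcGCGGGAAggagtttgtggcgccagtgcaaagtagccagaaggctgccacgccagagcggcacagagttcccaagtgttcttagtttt
Cdc20, chr4:118437294-118437593, minus strand: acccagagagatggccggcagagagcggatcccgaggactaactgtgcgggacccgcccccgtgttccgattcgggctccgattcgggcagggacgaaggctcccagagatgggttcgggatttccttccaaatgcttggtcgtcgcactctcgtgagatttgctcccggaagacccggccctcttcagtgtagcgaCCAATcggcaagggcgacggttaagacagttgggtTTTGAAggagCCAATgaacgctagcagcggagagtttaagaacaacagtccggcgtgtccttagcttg
Mki67, chr7:135716330-135716629, minus strand: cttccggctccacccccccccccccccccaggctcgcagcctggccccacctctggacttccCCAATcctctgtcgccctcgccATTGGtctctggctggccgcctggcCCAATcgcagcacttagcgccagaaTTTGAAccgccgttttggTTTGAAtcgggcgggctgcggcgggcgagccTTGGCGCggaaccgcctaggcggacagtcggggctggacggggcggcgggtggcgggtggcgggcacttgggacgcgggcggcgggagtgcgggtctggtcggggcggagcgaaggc
The Mcm5 window held 3 E2F-type matches, 2 of them overlapping, with 1 CHR-type match and 3 CCAAT boxes. The Rpa2 window held 1 E2F-type match and 3 CCAAT boxes. The Cdc20 window held 1 CHR-type match between 2 CCAAT boxes and no E2F-type match, while that of Mki67 held 1 E2F-type and 2 CHR-type matches with 3 CCAAT boxes. Windows were given for 41 of the 48 members (45 windows), and not for Gmnn, Mcm4, Gins1, Gins2, Pole, Ccna2, and Aurkb. An E2F-type match was in 8 of 9 licensing windows, 9 of 15 fork windows, 2 of 4 nucleotide supply windows, and 3 of 16 G2/M windows, against 9.57% of 32851 windows of all genes. A CHR-type match was in 2 of 9, 2 of 15, 2 of 4, and 14 of 16 windows of the same roles, against 27.6% of all windows. CCAAT was in 33 of 45 member windows, against 37.4% of all windows. The G2/M windows held a CHR-type match together with CCAAT in 13 of 16 cases, against 10.7% of all windows. These matches describe the letters only and were not tested.

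The libraries held 12940716 to 18434932 counts without vitC and 4753528 to 13157570 with vitC, and a member had at least 188 counts in every library. Libraries of 4 hr and 24 hr ran on lane 8 and those of 16 hr and 32 hr on lane 7, so that in any comparison of 16 hr or 32 hr with 4 hr the effect of lane and that of time cannot be told apart. Reads on Lars2 and 2 features summed with it (the Lars2 share) took 0.0113% and 0.0277% of the 4 hr libraries. They took 0.206% and 0.564% of the 16 hr and 32 hr libraries without vitC, and 4.21% to 7.11% of the other 4. The 8 ESC markers were above 1 CPM in all 8 libraries (summed level 1473 to 1690 CPM, with Utf1 the lowest in each). Their sum hid opposite changes. Pou5f1 (505.5 and 465.2 CPM at 4 hr, 280.4 to 346.2 CPM later), Zfp42, and Utf1 were lower in all 6 later libraries. Sox2 (145.0 and 119.8 CPM at 4 hr, 204.6 to 325.9 CPM later), Esrrb, and Klf4 were higher in all 6. Nanog and Sall4 overlapped between 4 hr and later. The 8 fibroblast markers summed to 107 and 124 CPM at 4 hr and to 280 to 695 CPM later, mostly from Col1a1 and Col1a2. Pdgfrb (7.46 and 10.4 CPM at 4 hr, 12.9 to 23.7 CPM later) and Postn (0.99 and 0.97 CPM at 4 hr, 1.73 to 14.6 CPM later) were also higher in all 6 later libraries, while Lum did not pass 0.43 CPM in any library and Col3a1 stayed between 4.26 and 9.59 CPM. The 7 primitive endoderm markers summed to 11.0 and 13.5 CPM at 4 hr and to 17.1 to 33.3 CPM later, most of it Dab2 (5.48 and 5.75 CPM, then 8.16 to 19.8 CPM) and Pdgfra. The 6 mesoderm and neural markers summed to 168 and 195 CPM at 4 hr and to 52.8 to 111 CPM later, most of it Tubb3. Several ESC markers, Col1a1, Col1a2, Pdgfrb, Postn, the primitive endoderm sum, and Tubb3 thus differed between 4 hr and later. The Lars2 share was lowest at 4 hr and varied widely among the later libraries. The part of these differences in the results was not tested.

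All 48 genes were detected in every library. Per length, mean levels over the 8 libraries ranged from 8.49 RPKM (Tk1, thymidine kinase) to 175.2 RPKM (Top2a, the topoisomerase that untangles sister chromatids). Among the licensing genes Mcm5 was highest and Cdc6, the loader of the helicase, lowest, with means of 140.0 and 23.5 RPKM. At the fork the means ran from 84.7 RPKM for Fen1, the nuclease that trims Okazaki fragments, to 14.5 RPKM for Pole, the leading-strand polymerase. Rrm2, a subunit of ribonucleotide reductase, had the highest mean of the nucleotide genes (74.2 RPKM), and Mad2l1, of the spindle checkpoint, the lowest of the G2/M genes (16.3 RPKM). The plot of levels per length shows that the spread over libraries within a gene was small beside the range between genes.

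**Figure D1:**
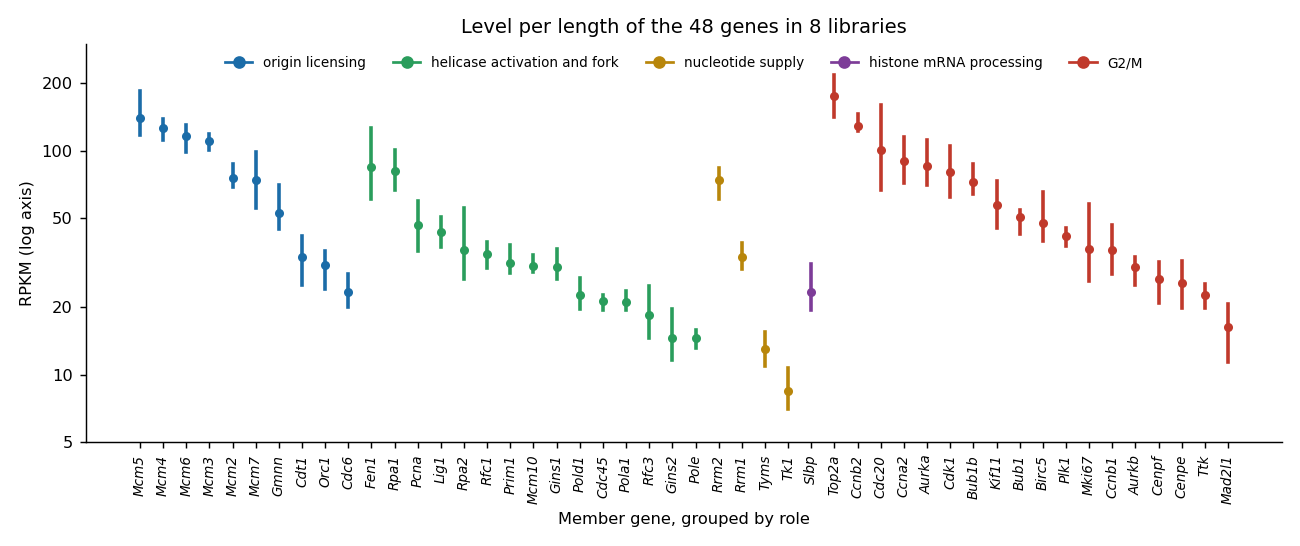
RPKM (counts relative to exon length and library total, log axis) of each of the 48 genes, grouped and coloured by role; points are means over the 8 libraries and bars run from the lowest to the highest library. Top2a is highest (mean 175.2 RPKM) and Tk1 lowest (8.49 RPKM).

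Some members share sequence with other genes, which bears on how their reads could be assigned. Exons of 11 members overlap those of another counted gene, for Fen1 over 84.2% of its exon bases (Tmem258 and Gm10143, opposite strand), for Gins2 over 67.3% (Gse1, opposite strand), and for the other 9 over at most 12.6%. Whether counting used the strand is not given in the sources used here, so the values of Fen1 and Gins2 are uncertain. Pcna, the sliding clamp, had 11425 counts in all libraries together and its pseudogene Pcna-ps2 had 12701, so Pcna is uncertain as well.

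Replication and mitosis transcripts were lower after the first hours in 2i. The 48 genes together took 13694 and 13924 CPM in the 4 hr libraries without and with vitC. Without vitC they took 11722.5, 11656, and 11255 CPM at 16, 24, and 32 hr, and with vitC 11705, 11617, and 10899 CPM. Both 4 hr libraries therefore lay above all 6 later ones, and the later libraries were close to each other. For 28 of the 48 members both 4 hr libraries were above all 6 later libraries, and for 0 were they below, against 19.0% and 18.7% of the 14931 genes tested. These 28 were 6 of 10 licensing genes, 7 of 15 fork genes, 3 of 4 nucleotide genes, Slbp, and 11 of 18 G2/M genes. In bulk RNA, fewer cells in S phase or mitosis and less RNA per cell cannot be told apart.

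**Figure D2:**
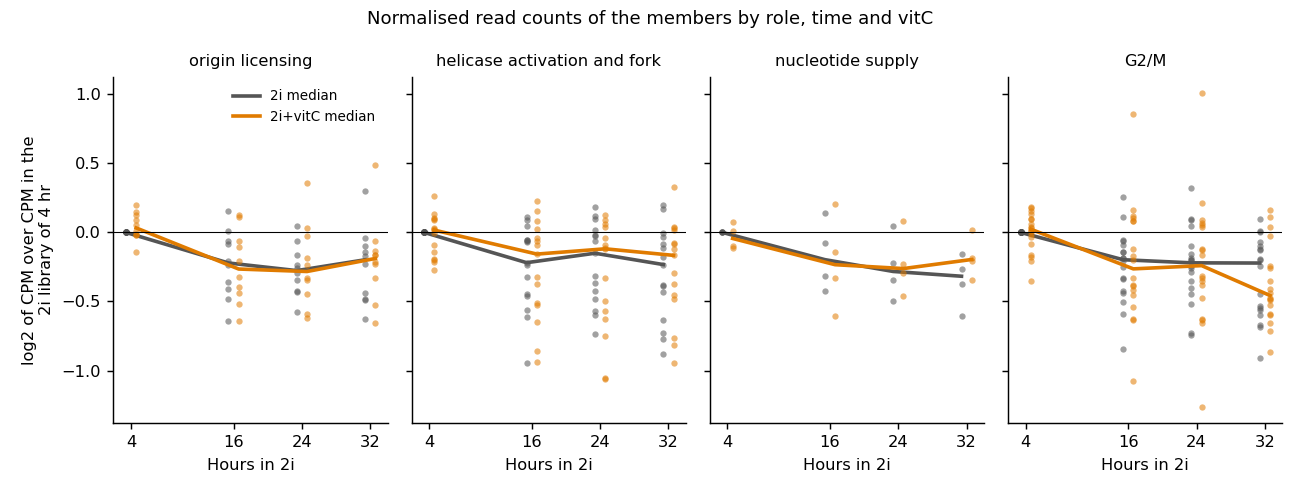
log2 of the CPM of each member over its CPM in the 4 hr library without vitC (y axis) by hours in 2i (x axis), for 4 roles; points are genes, lines are medians, grey without vitC and orange with vitC. The medians of all 4 roles lie below 0 at 16, 24, and 32 hr in both treatments, between -0.12 and -0.46.

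Time was tested between 4 hr and 24 hr, which shared a lane, in an additive model of time and treatment. The Lars2 share was 0.0277% and 0.0113% at 4 hr and 5.92% and 6.37% at 24 hr. Within this comparison the effect of time and that of the Lars2 share cannot be told apart. The error of this model (3 residual degrees of freedom) comes from how far both treatments depart from 1 shared time course, so p-values measure the spread between these libraries and not between replicate cultures. At 24 hr, 14 of the 48 members differed from 4 hr with an adjusted p-value under 0.05 (edgeR quasi-likelihood test, Benjamini-Hochberg over all genes), against 20.5% of all genes (1720 higher and 1341 lower, or 1432 higher and 1768 lower with offsets for GC content and length). Of these, 13 (27.1%) were lower, against 8.98% of all genes, and 1 (2.08%), Mki67, was higher, against 11.5%. The median log2 fold change over the 48 was -0.25, with 39 below 0, beside a median of 0.0077 over all genes. Leaving out 1 library moved the 14 to 9 (without the 4 hr library without vitC), 4 (the 24 hr library without vitC or the 4 hr library with vitC), or 2 (the 24 hr library with vitC), and with the Lars2 share as a covariate the number was 0, although the median remained between -0.21 and -0.37 in all 19 alternatives. With the Lars2 covariate, calls over all 14931 genes were 52 higher and 35 lower. With a library left out, calls over the 14780 to 14853 genes tested fell as well. They were 1477 higher and 1088 lower without the 4 hr library without vitC. Leaving out the 24 hr library without vitC gave 977 and 508. Without the 4 hr library with vitC they were 564 and 369, and without the 24 hr library with vitC 506 and 246. Without Fen1 and Gins2 the 14 members were 12.

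**Figure D3:**
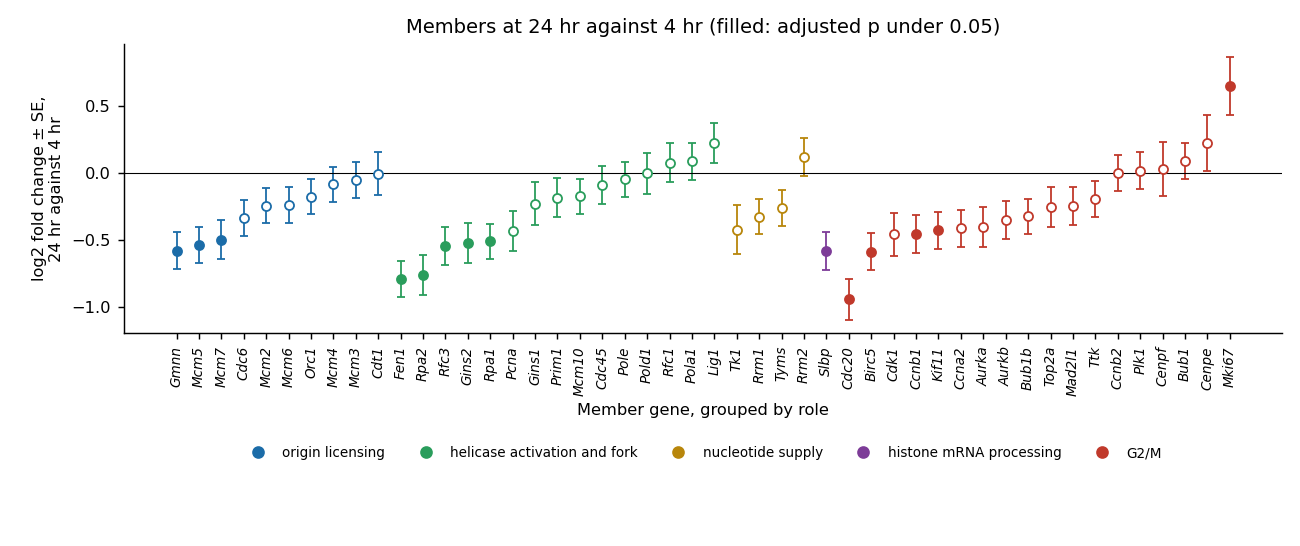
log2 fold change of each member at 24 hr against 4 hr (y axis, edgeR estimate ± SE), grouped and coloured by role; filled points had an adjusted p-value under 0.05. Cdc20 is lowest (-0.95) and Mki67 is the only filled point above 0 (0.65).

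Estimates of the origin licensing genes were all below 0 at 24 hr, with a median of -0.24, and 3 of 10 passed the test. Gmnn, which encodes the licensing inhibitor geminin, stood at 103.1, 66.1, 69.3, and 66.8 CPM at 4, 16, 24, and 32 hr without vitC and at 101.7, 76.0, 67.2, and 65.3 CPM with vitC. Both 4 hr libraries were above all 6 later ones. The later levels lay close together without vitC and declined further after 16 hr with vitC. The log2 fold change at 24 hr was -0.58 ± 0.14 (SE, edgeR adjusted p = 0.012). Mcm5, a helicase subunit whose promoter is printed above, had 706.6, 550.2, 524.9, and 505.6 CPM without vitC and 735.2, 492.6, 468.1, and 490.5 CPM with vitC. The 2 groups of libraries did not overlap and the difference at 24 hr was -0.54 ± 0.13 (edgeR adjusted p = 0.015). Mcm7 was at 381.7, 287.2, 300.3, and 357.1 CPM without vitC and at 437.1, 245.0, 280.2, and 325.1 CPM with vitC, so that it was lowest at 16 hr and part of the way back at 32 hr (-0.50 ± 0.14 at 24 hr, edgeR adjusted p = 0.028). The other helicase subunits moved less, at -0.25 for Mcm2, -0.24 for Mcm6, -0.09 for Mcm4, and -0.05 for Mcm3, none of which passed. Cdc6 had 146.7 and 147.5 CPM at 4 hr and 104.6 to 127.0 CPM later (-0.34, edgeR adjusted p = 0.097). Cdt1, its partner in loading the helicase, had a log2 fold change of -0.0071, with opposite directions in the 2 treatments. Between 4 hr and 24 hr Cdt1 went from 93.4 to 79.35 CPM without vitC and from 103.5 to 119.8 CPM with vitC.

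At the fork 5 of 15 genes were lower at 24 hr, and the median was -0.19. Rpa2, a subunit of the complex that coats single-stranded DNA, had 166.7, 86.6, 110.2, and 90.7 CPM without vitC and 156.7, 87.2, 80.1, and 86.5 CPM with vitC. Both 4 hr libraries were well above the rest, and the difference at 24 hr was -0.77 ± 0.15 (edgeR adjusted p = 0.0043), which is 1.70-fold lower. Its partner Rpa1 was at 550.7 and 564.1 CPM at 4 hr and at 372.1 to 466.8 CPM later (-0.51, edgeR adjusted p = 0.018). Rfc3, of the complex that loads the clamp, had 90.1, 65.5, 64.5, and 52.8 CPM without vitC and 89.7, 57.6, 58.4, and 53.1 CPM with vitC, lowest at 32 hr in both treatments (-0.55 ± 0.14 at 24 hr, edgeR adjusted p = 0.017). Rfc1, the large subunit of that complex, did not share it (0.08). Fen1, with the overlap stated above, had 305.4 and 266.7 CPM at 4 hr and 147.3 to 199.4 CPM later (-0.79 ± 0.13, edgeR adjusted p = 0.0017). Gins2, of the GINS complex and also overlapped, had 80.7 and 66.8 CPM at 4 hr and 47.9 to 61.9 CPM later (-0.52, edgeR adjusted p = 0.025). The replicative polymerases stood apart from these, with log2 fold changes of 0.08 for Pola1, -0.0047 for Pold1, and -0.05 for Pole. Pole had 159.5 and 174.6 CPM at 4 hr and 147.3 to 177.2 CPM later, so its groups overlapped. Lig1, the ligase that joins Okazaki fragments, had the highest estimate of the role (0.22, adjusted p = 0.32).

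Of the 4 nucleotide supply genes 0 passed at 24 hr with edgeR, DESeq2, or limma-voom, which called 20.5%, 19.4%, and 19.5% of all genes. With edgeR, 2 of the 4 had an unadjusted p-value under 0.05, beside 5153 of the 14931 genes tested. Tk1, which salvages thymidine, had 55.6, 44.7, 39.4, and 36.6 CPM without vitC and 51.4, 36.7, 40.4, and 48.1 CPM with vitC. Its 4 hr libraries were the highest, but the later ones spread widely (-0.43 ± 0.18, edgeR adjusted p = 0.12). Rrm1 and Tyms, the thymidylate synthase, gave -0.33 and -0.26. Rrm2 was the exception in sign, with 202.3, 223.1, 209.3, and 168.8 CPM without vitC and 188.7, 233.0, 214.7, and 204.4 CPM with vitC (0.12 ± 0.14, edgeR adjusted p = 0.595), so that the 2 subunits of ribonucleotide reductase differed in their estimates. Slbp, which binds the stem-loop of replication-dependent histone mRNA, was lower, with 179.7, 140.9, 123.0, and 117.6 CPM without vitC and 190.4, 123.9, 123.2, and 133.8 CPM with vitC (-0.59 ± 0.14, edgeR adjusted p = 0.012).

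Among the 18 G2/M genes 4 were lower and 1 higher at 24 hr, with a median of -0.29. Cdc20, the activator of the anaphase-promoting complex, had 298.6, 166.3, 178.5, and 158.7 CPM without vitC and 281.3, 141.8, 124.3, and 164.2 CPM with vitC. It was the lowest of all 48 in this comparison at -0.95 ± 0.16 (edgeR adjusted p = 0.0017), which is 1.93-fold lower, and most of the difference was there at 16 hr. Birc5 (survivin), of the chromosomal passenger complex, had 223.3, 148.6, 134.9, and 154.2 CPM without vitC and 197.6, 144.7, 144.9, and 147.8 CPM with vitC (-0.59 ± 0.14, edgeR adjusted p = 0.010). Ccnb1, a mitotic cyclin, had 195.7, 164.9, 143.7, and 132.7 CPM without vitC and 194.5, 126.4, 140.9, and 119.3 CPM with vitC (-0.46 ± 0.14, edgeR adjusted p = 0.040). Ccnb2, the other B-type cyclin among the members, gave -0.0017 and overlapped between times. Kif11, the motor that separates the spindle poles, fell by 0.43 on the log2 scale (edgeR adjusted p = 0.044). Cdk1, Ccna2, Aurka, and Aurkb lay between -0.46 and -0.35 without passing, and the kinases Plk1 and Bub1 gave 0.01 and 0.09. Top2a had 1733 and 1969 CPM at 4 hr and 1277 to 1555 CPM later (-0.26 at 24 hr, adjusted p = 0.24), and Mad2l1 had 153.2 and 173.0 CPM at 4 hr and 95.1 to 147.2 CPM later (-0.25, adjusted p = 0.24).

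Of the 48 members, 9 had an estimate above 0 at 24 hr against 4 hr, and only Mki67 was called higher. Mki67 encodes the proliferation antigen Ki-67, which coats mitotic chromosomes. It had 290.2, 262.8, 361.8, and 309.8 CPM at 4, 16, 24, and 32 hr without vitC and 292.6, 526.9, 584.7, and 314.3 CPM with vitC. The high libraries were 16 hr and 24 hr with vitC, which were also those with the 2 largest Lars2 shares (7.11% and 6.37%) and the 2 smallest totals, while the 32 hr library with vitC had a Lars2 share of 4.21% and a level near that of 4 hr. The difference at 24 hr was 0.65 ± 0.21 (edgeR adjusted p = 0.0498), and the 2 treatments gave unequal ratios of 0.32 (95% counting interval 0.26 to 0.38) and 1.00 (0.93 to 1.07). The call was lost in 10 of 19 alternatives, among them DESeq2 size factors (adjusted p = 0.052), GC content and length offsets (0.41, adjusted p = 0.15), and the Lars2 share as a covariate (0.16, adjusted p = 0.88), and the estimate fell to 0.37 without the 4 hr library with vitC and to 0.47 without the 24 hr library with vitC.

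**Figure D4:**
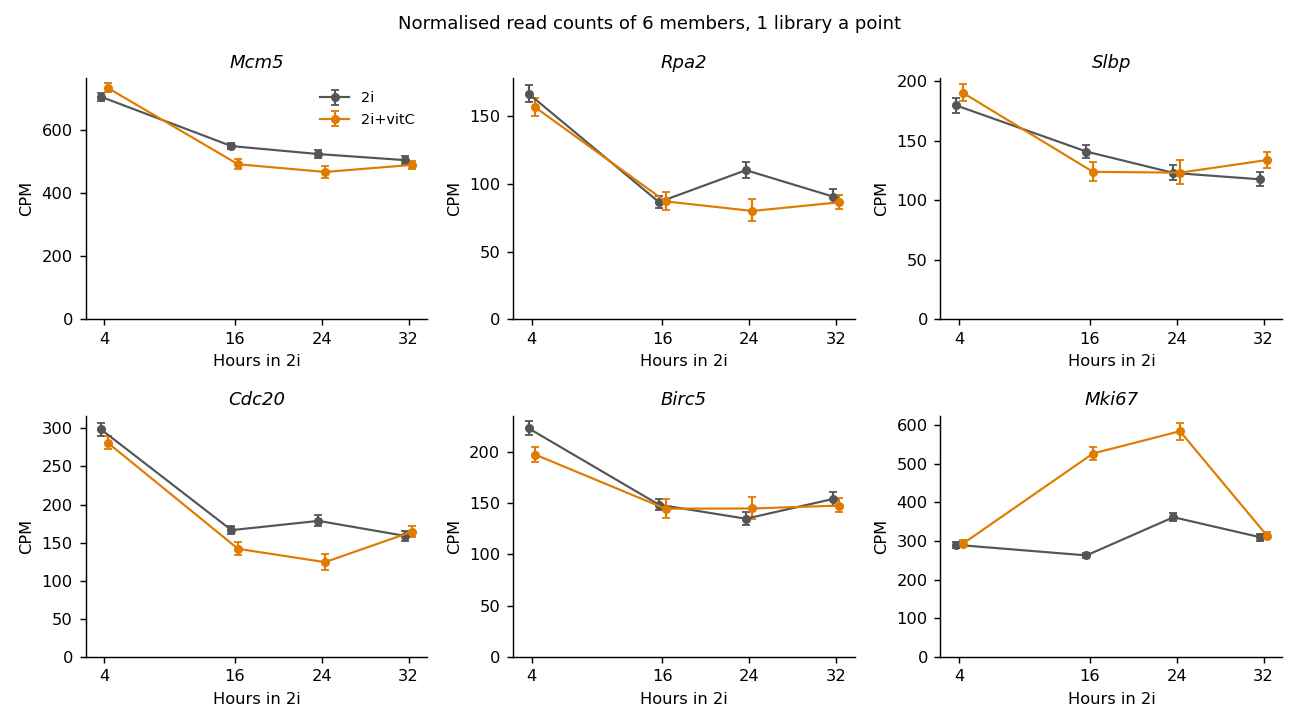
CPM (y axis, from 0) of Mcm5, Rpa2, Slbp, Cdc20, Birc5, and Mki67 by hours in 2i (x axis), grey without vitC and orange with vitC; each point is 1 library and bars are Wilson 95% intervals, which cover counting error only. In 5 genes the 4 hr points are the highest, and Mki67 is highest at 16 and 24 hr with vitC (526.9 and 584.7 CPM).

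The comparisons of 16 hr and 32 hr with 4 hr used the same 4 hr libraries and crossed lanes. At 16 hr 9 of the 48 members passed, all lower, against 16.4% of all genes called, 9.16% higher and 7.24% lower (1367 genes higher and 1081 lower, or 1177 and 1467 with the GC content and length offsets). At 32 hr 17 passed, all lower, against 25.3% of all genes called, 13.5% higher and 11.8% lower. The medians over the 48 were -0.22 and -0.26, beside 0.0061 and 0.0048 over all genes. By role, 3 licensing, 3 fork, and 0 nucleotide genes, Slbp, and 2 G2/M genes were lower at 16 hr, and 3, 5, 0, 1, and 8 were lower at 32 hr. Without 1 library, the 9 went as low as 2 (without the 4 hr library with vitC), and to 4 without the 4 hr library without vitC or the 16 hr library with vitC. The 17 went to 2 without the 32 hr library without vitC, to 5 without the 4 hr library with vitC, and to 7 without the 32 hr library with vitC. A setting chosen after seeing the data kept the 4 libraries with a Lars2 share under 1%, where 7 and 18 passed. It left 1 library each at 16 hr and 32 hr, both without vitC, and took its spread from the 2 libraries of 4 hr alone, which differ in vitC, so it is no check on the counts above. In the refits above that left out a library, fewer of all genes were called as well. At 16 hr these were 341 higher and 199 lower without the 4 hr library with vitC. They were 1100 and 697 without the 4 hr library without vitC, and 829 and 639 without the 16 hr library with vitC. At 32 hr, in the order given above, they were 864 and 537, 994 and 700, and 883 and 615.

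Cdc20 was the lowest member at 16 hr (-0.92, edgeR adjusted p = 0.0030) and Rpa2 at 32 hr (-0.87, edgeR adjusted p = 0.0015). Ccna2, Ccnb1, Cdk1, Kif11, and Mad2l1, which with the cyclins and kinase of mitotic entry include a motor and a checkpoint protein, had log2 fold changes of -0.57, -0.63, -0.61, -0.62, and -0.63 at 32 hr and passed there. At 16 hr their values were -0.31, -0.43, -0.37, -0.41, and -0.20, and none passed. Aurka, the spindle pole kinase, and Birc5 gave -0.48 each at 32 hr and passed. Mcm7, which had passed at 16 hr (-0.63, edgeR adjusted p = 0.013), was at -0.27 at 32 hr (edgeR adjusted p = 0.19).

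Between 16 hr and 32 hr, within lane 7, 0 of 48 members passed with edgeR, DESeq2, or limma-voom. These tools called 0.583% (0.335% higher and 0.248% lower), 1.6%, and 1.17% of all genes. With edgeR, 2 members had an unadjusted p-value under 0.05, beside 2129 of the 14931 genes tested. The median over the 48 was -0.08. The extremes were Mad2l1 (-0.44 ± 0.14, edgeR adjusted p = 0.19) and Mcm7 (0.36 ± 0.14, edgeR adjusted p = 0.28). G2/M genes had a median of -0.15 and licensing genes one of -0.02. Ccna2 (-0.26), Bub1 (-0.27), and Cdk1 (-0.24) were among the lower G2/M estimates, and Aurkb (0.18) and Bub1b (0.13) lay on the other side, so no late change was detectable with these libraries.

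vitC was compared with its absence within each time, with time as a block. Of the 48 members 0 passed with edgeR, DESeq2, or limma-voom. These tools called 0.167% (0.107% higher and 0.0603% lower), 2.0%, and 0.616% of all genes. With edgeR, 3 members had an unadjusted p-value under 0.05, beside 2062 of the 14931 genes tested. The median log2 difference over the members was -0.0093, with SEs from 0.09 to 0.15. The 2 estimates over 0.25 in size were Mki67 (0.43 ± 0.15, edgeR adjusted p = 0.22) and Orc1, of the origin recognition complex (0.26 ± 0.09, edgeR adjusted p = 0.24). Orc1 had 114.3, 99.3, 95.4, and 84.2 CPM without vitC and 124.6, 123.5, 117.0, and 104.2 CPM with vitC at 4, 16, 24, and 32 hr, and was higher with vitC in 4 of 4 pairs. Fen1 was lower in 4 of 4 (-0.23 ± 0.09, edgeR adjusted p = 0.28). In all, 4 members were higher with vitC at all 4 times (Cdc6, Mki67, Orc1, and Pole), against 11.0% of all genes, and 4 were lower at all 4 (Ccnb1, Fen1, Mcm3, and Mcm6), against 10.7%, shares near those of all genes.

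By role the vitC medians were -0.02 for licensing, -0.03 for fork, 0.02 for nucleotide supply, and -0.03 for G2/M genes. Over the 28 hr of the course, a change of the vitC effect was called for 0 of 48 members and 0.0% of all genes. The test was that of edgeR, with 2 residual degrees of freedom. An unadjusted p-value under 0.05 was found for 0 members, beside 431 of the 14931 genes tested. The SE of this term had a median of 0.30 over the members, so only large changes could have been seen.

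Mki67 was singled out with Cenpe and Cenpf after their values were seen. Both of the latter encode large kinetochore proteins. Between 4 hr and 24 hr Cenpe went from 239.7 to 223.4 CPM without vitC and from 188.1 to 277.2 CPM with vitC. Cenpf went from 457.0 to 398.7 CPM without vitC and from 395.7 to 474.5 CPM with vitC. Mki67 had log2 vitC ratios of 0.01, 1.00, 0.69, and 0.02 at 4, 16, 24, and 32 hr. Cenpe had -0.35, 0.59, 0.31, and -0.36, and Cenpf had -0.21, 0.61, 0.25, and -0.36. All 3 ratios were highest at 16 hr, where the Lars2 share was 7.11% with vitC and 0.206% without, and smaller at 24 hr, where it was 6.37% and 5.92%. At 32 hr, where it was 4.21% and 0.564%, they were near or below 0. The part of the Lars2 reads in these ratios was not tested.

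**Figure D5:**
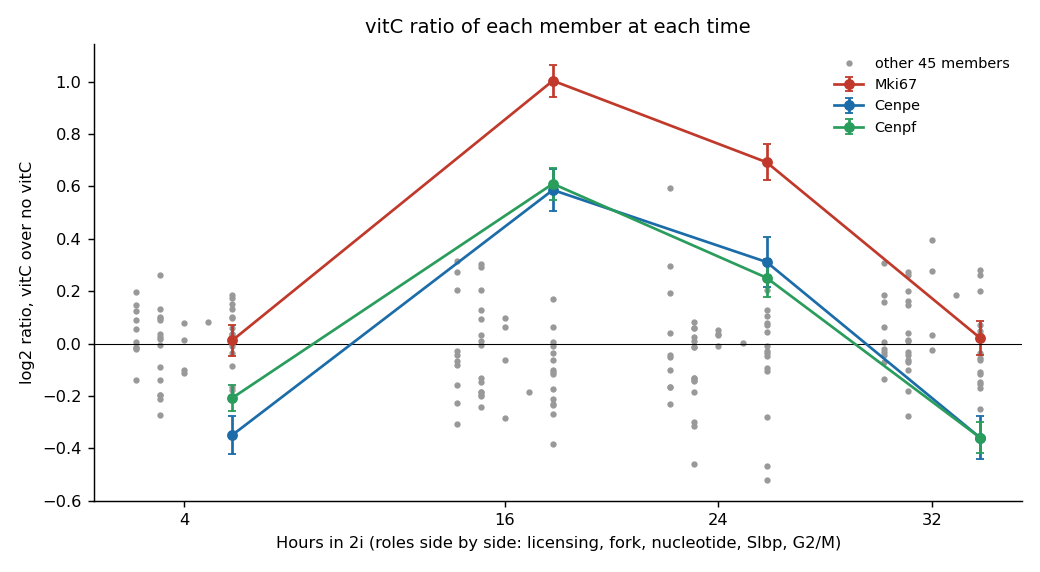
log2 ratio of CPM with vitC over without (y axis) at 4, 16, 24, and 32 hr (x axis) for all 48 members, 1 pair of libraries a time; bars on Mki67, Cenpe, and Cenpf are 95% counting intervals, grey points are the other 45 members. The grey points reach at most 0.59 (Cdt1 at 24 hr), while Mki67 reaches 1.00 at 16 hr.

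Further genes of the same processes were read from 3 lists that are not among the 48. Of 36 other replication genes, 6 (16.7%) were lower and 1 (2.78%) higher at 24 hr against 4 hr, with a median of -0.27, beside 8.98% and 11.5% of all genes. Orc2, of the origin recognition complex, was lowest (-0.84 ± 0.14, edgeR adjusted p = 0.0018), followed by Gins3 of the GINS complex (-0.70) and Pole3, a subunit of polymerase epsilon (-0.65), while Dna2, a nuclease and helicase, was higher (0.48). Of 40 other mitosis genes 3 (7.5%) were lower and 0 higher, with a median of -0.11, a share near the 8.98% of all genes. These were the kinetochore genes Nuf2 (-0.61) and Spc25 (-0.61) and Gtse1 (-0.61). Both 4 hr libraries were above all 6 later ones for 18 of the 36 replication genes and 11 of the 40 mitosis genes. They were below them for 2 and 4. The shares of all genes were 19.0% above and 18.7% below. Of 20 transcription factors of the cell cycle and their partners 2 were higher and 2 lower, with a median of 0.12, shares again near the 11.5% and 8.98% of all genes. E2f1, an activator of S-phase genes, gave 0.97 ± 0.23 (edgeR adjusted p = 0.013), with ratios of 0.56 without and 1.45 with vitC. Foxm1, an activator of G2/M genes, gave 1.09 ± 0.26 (edgeR adjusted p = 0.011), with ratios of 0.46 and 1.82. As with Mki67, the ratio with vitC was the larger in both genes, and the part of the Lars2 reads in it was not tested. Tfdp2 and Tfdp1, the DNA-binding partners of E2F proteins, were lower (-0.66 and -0.48).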

How the data were processed

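Total RNA of E14 ESCs was depleted of rRNA and sequenced as 50-base single-end reads. The authors deposited raw counts per Ensembl gene without normalization, and per the labels' processing notes GSNAP, HTSeq, NCBIM37, and mm9 were used, with strand setting and annotation release not given in the sources used here. Of 37263 identifiers, 32604 had a symbol in GENCODE M21, which also gave exon lengths and overlaps. Groups came from the labels and the lane from the file names.

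The 14931 genes that reached 1 CPM in 2 or more libraries were tested, scaled with edgeR 4.0.16 (TMM). CPM is relative to the scaled total, and RPKM adds the merged exon length. The quasi-likelihood test (Benjamini-Hochberg, threshold 0.05, R 4.3.3) was fitted over all 8 libraries and all genes with terms for treatment and time, and a linear term in hours tested a change of the vitC effect. Standard errors were derived from the estimate and its F statistic. Wilson 95% intervals and counting intervals cover counting error only, as PCR copies could not be told from separate molecules. The code was tested on simulated counts. Alternatives were DESeq2 1.42.0, limma-voom 3.58.1, other scalings and filters, GC content and length offsets, a Lars2 covariate, thinning, single lanes, and the omission of each library.

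The 48 members and the other lists were chosen with earlier results of these data known. Named are up to 4 called members of each role at 24 hr, any called member at 32 hr against 16 hr or with vitC, the members highest and lowest in RPKM in a role, and up to 3 called genes of each other list. The remaining members are given by short values, and Orc1, Cenpe, and Cenpf were described after their values were seen.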

Additional observations from a re-analysis of the deposited data

How the results depend on the processing

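The direction of the members' median at 24 hr, 16 hr, and 32 hr against 4 hr was the same in every alternative run, whereas the number of members called varied. At 24 hr against 4 hr (14 members called) it was 0 with the Lars2 share as a covariate, and it ran from 2 to 17 when each library was left out in turn. At 16 hr against 4 hr (9 called) it was 17 with GC content and length offsets, 2 with the Lars2 covariate, and 2 to 8 with a library left out. At 32 hr against 4 hr (17 called) it was 2 to 19 with a library left out. The other settings gave 10 to 21 members at 24 hr, among them 13 within lane 8 alone, 7 to 13 at 16 hr, and 12 to 21 at 32 hr. For vitC it was 1 without a filter on low counts (Mki67, 0.43, edgeR adjusted p = 0.0041) and otherwise 0, also with each library left out. Without the filter, 473 of 23194 genes were called higher and 217 lower, against 16 and 9 of 14931 in the main setting. For 32 hr against 16 hr, and for the term in hours times vitC, the number of members called was 0 in every setting. Calls over all genes moved as well. Against 4 hr, 1720 genes were higher and 1341 lower at 24 hr in the main setting, and 52 and 35 with the Lars2 covariate. At 16 hr these were 1367 and 1081, 472 and 331 with the covariate, and 1177 and 1467 with the offsets. In each comparison against 4 hr, fewer genes were called when a library of either time was left out. The causes of these differences were not tested. In the additive model, leaving out a library or adding the Lars2 covariate leaves 2 residual degrees of freedom in place of 3. Over 2034 refits of the 18 named members in 6 comparisons, 125 lost a call and 21 gained one. Direction and side of the threshold were kept in 1776, which include estimates called in neither fit. The other 112 took the opposite sign, among estimates that passed neither in the main setting nor in the alternative. At 24 hr against 4 hr, 12 of the 18 lost a call with the Lars2 covariate. Without a 24 hr library 10 (with vitC) or 9 (without vitC) did so, and without a 4 hr library 8 (with vitC) or 4 (without vitC). No paired analysis was possible because each combination of time and treatment has 1 library, so that replicate numbers pair nothing. Libraries were paired by time alone, as the block in the vitC comparison. With 4753528 counts, the 24 hr library with vitC sets the widest intervals.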
